A study of Mus musculus with 30 samples.

Results

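The 3 Gli transcription factors and 6 proteins that act on them were followed at the RNA level in mouse fibroblasts that received a transcription factor. The 9 genes were Gli1, Gli2, Gli3, Sufu, Kif7, Spop, Prkaca, Csnk1a1 and Gsk3b. They were taken by symbol from the 36047 genes of the GENCODE M21 annotation, and all 9 passed the filter on low counts in each comparison.

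Hedgehog signalling ends on the Gli proteins. Kif7 organises them at the tip of the primary cilium. Without ligand, Sufu holds the Gli proteins in the cytoplasm. In that state protein kinase A, casein kinase 1 and Gsk3 phosphorylate Gli2 and Gli3 so that they are cut to repressors or degraded. Ligand releases full-length Gli2 and Gli3 to act as activators, which switch on Gli1, itself an activator and a widely used readout of the pathway, and Spop hands Gli2 and Gli3 to a Cul3 ubiquitin ligase. NIH3T3 fibroblasts respond to Hedgehog ligand and are a standard cell model of this pathway.

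The study asked, by its title, how transcription factor levels relate to differences between cells in their Hedgehog response, and sequenced bulk RNA from NIH3T3-CG cells, a line that the labels describe as embryonic fibroblasts. In a transduction experiment, 1 group carrying transduced Prrx1 received doxycycline and the other did not. In the transfection experiments, cells received Prrx1 or Snai1 and shared 1 set of control plasmid libraries, cells received Jun or Egr1 and shared another set, and cells that received Srebf2 had a control set of their own. There were 10 groups of 3 libraries, 30 in all. No group of cells without the Prrx1 transduction received doxycycline, so an effect of doxycycline itself and an effect of Prrx1 cannot be told apart. The labels do not say whether the 3 libraries of a group came from separate cultures, so p-values measure the spread between libraries, which may be technical. In bulk RNA, fewer cells that express a gene and less of its RNA per cell cannot be told apart.

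Libraries held between 7946823 and 36719040 estimated counts on mouse genes. Values are given as CPM (counts scaled to the library's total on mouse genes), which suits comparison of 1 gene between libraries, and as TPM, which is scaled to transcript length and is used to compare genes. A total of 9 of 10 fibroblast markers were above 1 CPM in every library, and the exception was the proteoglycan gene Lum. The summed level of 7 epithelial markers was between 0 and 166.7 CPM, highest in Egr1 replicate 3, and that of 6 neural markers was between 5.16 and 54.5 CPM, highest in replicate 2 of the Jun and Egr1 controls. Each introduced factor rose in its own group by edgeR's quasi-likelihood test with Benjamini-Hochberg adjustment. Prrx1 rose 3.85-fold with doxycycline (adjusted p = 3.08e-07) and 27.5-fold with transfection (adjusted p = 2.74e-09). Snai1 rose 122.6-fold, Egr1 9.53-fold, Jun 22.1-fold and Srebf2 4.196-fold, with adjusted p between 5.47e-14 for Srebf2 and 0.000368 for Egr1.

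By length-scaled level the 9 genes covered a wide range. Csnk1a1, the casein kinase 1 alpha gene, was the most abundant in 9 of the 10 groups by mean TPM, with group means between 176.1 and 239.3 TPM. Spop had 95.6 to 243.6 TPM, and Prkaca, the catalytic alpha subunit of protein kinase A, had 69.3 to 113.2 TPM. Gsk3b lay between 18.6 and 47.4 TPM and the Gli inhibitor Sufu between 18.6 and 25.6 TPM. Gli3 had 5.96 to 21.4 TPM, Gli2 2.79 to 22.6 TPM and the kinesin-family scaffold gene Kif7 3.91 to 6.86 TPM. In the doxycycline group Gli2, at 22.6 ± 1.82 TPM, and Gli3, at 21.4 ± 1.98 TPM, were level with Sufu, at 21.8 ± 1.46 TPM (SD, n = 3 each). These sums rest in part on shorter transcripts. In the transduction libraries the longest coding transcripts Gli2-201, Gli3-201 and Sufu-201 held at most 14.5, 12.6 and 10.7 TPM. Gli1 was the least abundant in all 10 group means, between 1.25 and 3.87 TPM, and rested on 9 to 160 counts per library. Per length, Csnk1a1, Spop and Prkaca were each above every Gli factor in all 10 group means.

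**Figure D1:**
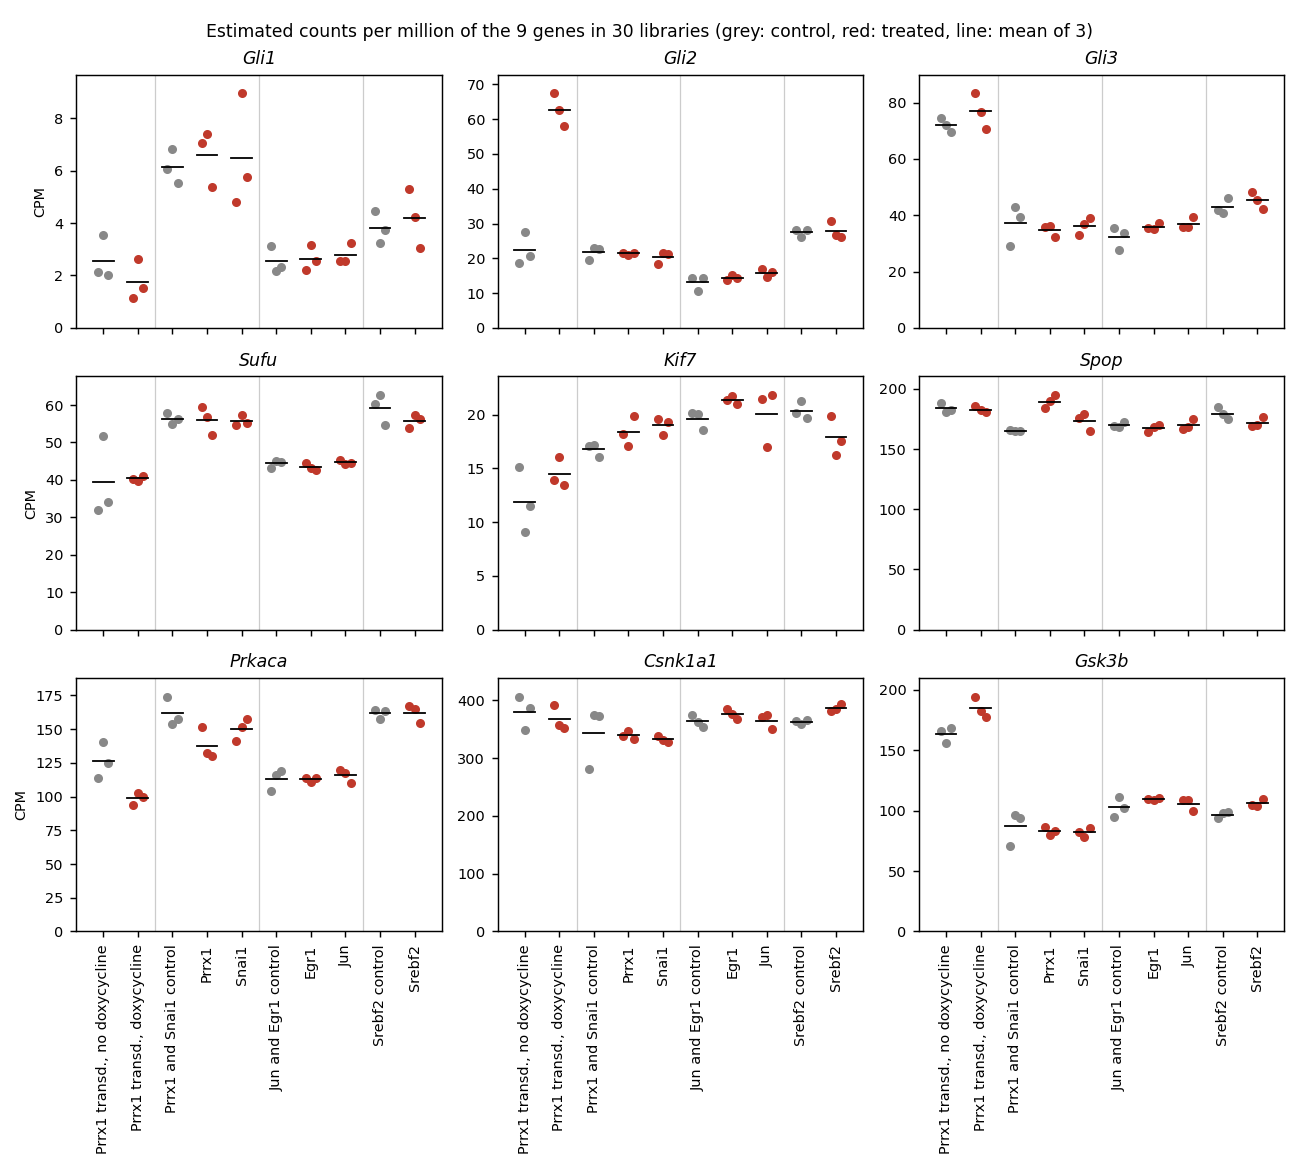
Level in CPM (vertical axis from 0) of each gene in each of the 30 libraries, with 3 points and a mean line per group, grey for controls and red for treated cells; vertical lines separate the 4 experiments. The doxycycline libraries stand apart for Gli2, at 58.2 to 67.4 CPM, above the other 27 libraries, and Gli3 and Gsk3b are higher in all 6 transduction libraries than in all 24 transfection libraries.

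In cells transduced with Prrx1, Gli2 rose and Prkaca fell with doxycycline. Of the 9 genes, 1 was higher, 1 was lower and 7 did not pass the test, where 6.19% of the 13633 genes tested passed, 3.45% higher and 2.74% lower. The median log2 fold change was 0.03 over the 9 genes and -0.01 over all genes tested. DESeq2 called 2 of the 9, where it called 4.13% of 23568 genes, and 2 had an unadjusted p under 0.05. The groups did not overlap for 3 of the 9 genes, against 25.1% of all genes tested.

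Gli2, the main activator among the Gli proteins in early pathway response, is on chromosome 1 of GRCm38 at chr1:118834132-119053619 on the minus strand, and 100% of its 31-base words are found in no other gene of the annotation. With doxycycline its 3 libraries held 67.4, 62.6 and 58.2 CPM, from 536, 639 and 728 counts. Without doxycycline they held 18.7, 27.7 and 20.6 CPM, from 319, 234 and 226 counts. The lowest doxycycline library thus lay far above the highest library without doxycycline. The mean was 62.7 ± 4.65 CPM against 22.3 ± 4.74 CPM (SD, n = 3 each). Gli2 rose 2.79-fold (95% interval 2.32 to 3.37), a log2 fold change of 1.48 ± 0.138 (SE), with an adjusted p of 5.88e-05 by edgeR. It ranked 63 by p among the 13633 genes tested. The call held under all 14 alternatives, with log2 fold changes between 1.39 and 1.64.

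The increase was found in the longest coding transcript. Gli2-201 accounted for 59.5 ± 5.04 CPM with doxycycline and 20.9 ± 4.66 CPM without it (SD, n = 3 each), and its groups did not overlap. The short non-coding Gli2-202 made up 18.3% of Gli2's TPM with doxycycline but varied between 6.90% and 31.9% over the 3 libraries, on levels of 0.190 to 0.946 CPM, so that its part in the length-scaled level was uncertain. The 250 bases before the start of Gli2-201 are shown because Gli2 was the gene that changed most, taken from RefSeq's promoters on GRCm38.p6 (chr1:119053620-119053869, minus strand, written 5′ to 3′ in the direction of the gene, capitals marking CpG pairs).
Gli2 promoter: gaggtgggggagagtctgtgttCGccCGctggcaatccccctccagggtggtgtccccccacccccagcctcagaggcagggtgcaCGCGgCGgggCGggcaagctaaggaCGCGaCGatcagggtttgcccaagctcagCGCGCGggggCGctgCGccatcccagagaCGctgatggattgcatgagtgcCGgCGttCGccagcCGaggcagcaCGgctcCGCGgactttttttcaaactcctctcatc
This window held 22 CpG pairs and was 67.2% G and C, where the medians over 32851 RefSeq promoter windows of that length were 6 pairs and 52.4%. It had no match to TAATTA, the core that paired-related homeodomain proteins such as Prrx1 bind, which was found in 4.84% of all windows. TAATTA reads the same on both strands. No match says only that these letters are not in these 250 bases.

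Prkaca fell with doxycycline. Its libraries held 93.8, 103 and 99.8 CPM with doxycycline and 114, 140 and 125 CPM without it, so all 3 doxycycline libraries were below all 3 others. The mean was 98.7 ± 4.52 CPM against 126.6 ± 13.3 CPM (SD, n = 3 each), and the fitted log2 fold change was -0.37 ± 0.088 (SE; adjusted p = 0.0288 by edgeR). The direction was the same in all 14 alternatives, between -0.42 and -0.31, but 5 of them lost the call. Those were limma on log2(TPM + 1) (adjusted p = 0.386) and the fits without doxycycline replicate 1, 2 or 3 (adjusted p = 0.133, 0.113 and 0.0925) or without no-doxycycline replicate 3 (adjusted p = 0.0740).

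The other 7 genes did not pass the test with doxycycline. Gli3, the main source of Gli repressor, had 83.3, 76.7 and 70.5 CPM with doxycycline and 74.7, 72.0 and 69.7 CPM without it. These groups overlapped, and the fold change was 1.05 (95% interval 0.923 to 1.19). Gli1 had 1.13, 2.65 and 1.52 CPM with doxycycline and 2.12, 3.55 and 2.001 CPM without it. The overlapping groups gave a fold change of 0.696 with a wide interval, 0.368 to 1.32, so a moderate change in either direction was not detectable at this depth. Gsk3b had 194, 182 and 177 CPM against 166, 156 and 168 CPM. Its groups did not overlap, with a log2 fold change of 0.15 ± 0.078 (SE; adjusted p = 0.327 by edgeR).

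Among the remaining 4 genes the log2 fold changes were 0.03 for Sufu, 0.25 for Kif7, -0.03 for Spop and -0.08 for Csnk1a1, with adjusted p between 0.588 and 0.941 by edgeR. No-doxycycline replicate 2 stood apart for Sufu, at 51.7 CPM against 32.0 and 34.2 CPM. Kif7 held 15.1, 9.12 and 11.5 CPM without doxycycline, lowest in the same library. In that library 1.20% of counts came from mitochondrially encoded protein genes, against 3.34% and 1.92% in the other two. The part of this share in these results was not tested.

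The rise of Gli2 changed the makeup of the Gli family per length. With doxycycline Gli2 made up 49.4, 51.2 and 49.3% of the summed TPM of Gli1, Gli2 and Gli3, and without doxycycline 21.9, 25.8 and 29.99%. These ranges did not overlap. The ratio of Gli2 to Gli3 in TPM was 1.06 ± 0.0451 with doxycycline and 0.376 ± 0.0797 without it (SD, n = 3 each). The summed Gli level was 45.3 ± 3.70 TPM against 26.7 ± 3.74 TPM. Sufu overlapped between the groups, and its ratio to the summed Gli level was 0.483 ± 0.0315 with doxycycline and 0.825 ± 0.118 without it. In the 8 transfection groups the mean of that ratio was between 1.18 and 1.80. The transcripts given the counts differed between these experiments. Sufu-202 took 44.53 to 59.59% of Sufu's TPM in the transduction libraries and 17.02 to 38.8% in the transfection libraries. Of the words of Sufu-202, 0% are its own, so this split rests on the estimate. The part of this split in the ratio was not tested. The Gli2 shares rest in part on short transcripts. Gli2-209, with 3.66% of its words its own, held 3.34 ± 2.91 TPM with doxycycline and 1.10 ± 0.969 TPM without it. The uncertain Gli2-202 supplied 4.19 ± 2.92 TPM of the Gli2 level with doxycycline and 0.0300 ± 0.0519 TPM without it, while Gli2-201 alone had 13.4 ± 1.26 TPM and 4.61 ± 1.17 TPM (SD, n = 3 each).

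**Figure D2:**
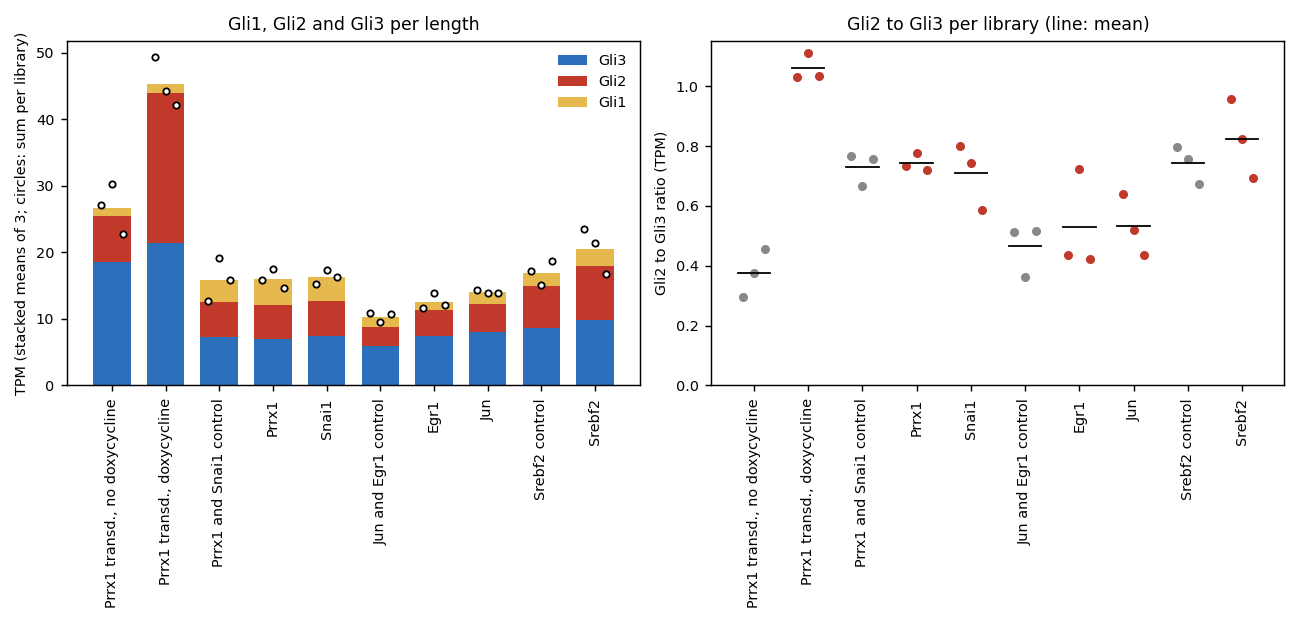
Left, stacked mean TPM of Gli3, Gli2 and Gli1 in the 10 groups, with a circle for the sum in each library; right, the ratio of Gli2 to Gli3 in TPM per library with the mean of 3 as a line, grey for controls and red for treated. Gli2 and Gli3 are near equal with doxycycline (ratio 1.06) and Gli3 prevails without it (ratio 0.376).

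With Prrx1 transfection Prrx1 itself rose further than with doxycycline, and Gli2 did not pass the test. The Gli2 libraries held 21.6, 21.1 and 21.5 CPM with Prrx1 and 19.5, 23.0 and 22.8 CPM with the control plasmid. The Prrx1 values lay inside the range of the controls, and the fold change was 0.981, a log2 fold change of -0.03 ± 0.092 (SE; adjusted p = 0.926 by edgeR). The difference between both ways of adding Prrx1 was tested directly, as the doxycycline effect minus the transfection effect. For Gli2 it was 1.51 ± 0.172 on the log2 scale (SE; adjusted p = 6.48e-05 by edgeR), and it passed in all 20 alternatives, between 1.42 and 1.66. Of the 9 genes Gli2 alone passed this test, where 4.02% of 15218 genes passed (1.98% higher and 2.04% lower). DESeq2 called 1 of the 9, where it called 3.79% of 25149 genes, and 2 had an unadjusted p under 0.05.

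With Prrx1 transfection edgeR called 0 of the 9 genes, where 3% of 13110 genes passed (1.94% higher and 1.06% lower). DESeq2 called 1, Spop, where it called 2.86% of 22723 genes, and 2 had an unadjusted p under 0.05, Spop and Prkaca. Spop held 184, 190 and 195 CPM against 166, 165 and 165 CPM. All 3 treated libraries were above all 3 controls, and the log2 fold change was 0.20 ± 0.056 (SE; adjusted p = 0.0849 by edgeR and 0.02495 by DESeq2). Prkaca held 151, 132 and 130 CPM against 174, 154 and 158 CPM. The treated libraries were again apart from the controls, with a log2 fold change of -0.23 ± 0.080 (SE; adjusted p = 0.146 by edgeR). Prkaca was thus lower in every Prrx1 library than in every control of its own experiment by both routes, though it passed only with doxycycline, and the difference between the routes was -0.15 ± 0.129 on the log2 scale (SE; adjusted p = 0.636). Groups did not overlap for 2 of the 9 genes, against 19.7% of all genes tested.

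**Figure D3:**
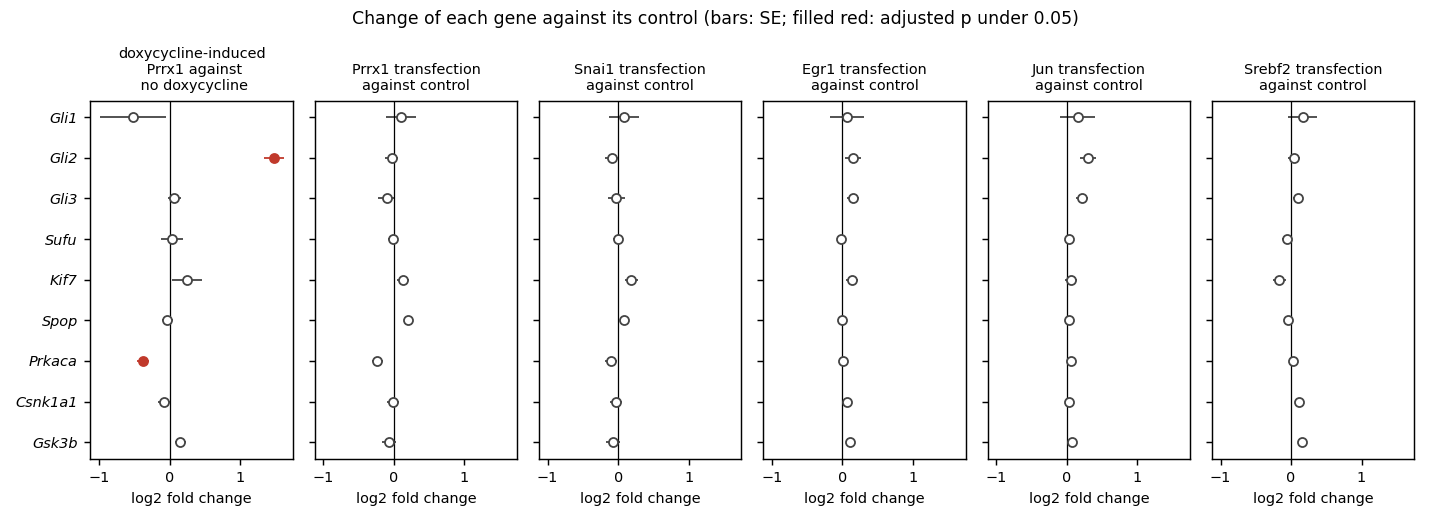
Log2 fold change (horizontal axis) of each gene in the 6 comparisons, with bars of 1 SE; filled red points have an adjusted p under 0.05 by edgeR. Filled points appear in the doxycycline panel alone, for Gli2 at 1.48 and Prkaca at -0.37.

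Snai1 transfection shared its controls with Prrx1. edgeR called 0 of the 9 genes, where 1.62% of 13110 genes passed (1.14% higher and 0.481% lower), and neither DESeq2 nor an unadjusted p under 0.05 marked any, with counts of 0 and 0. The log2 fold changes were between -0.10 for Prkaca and 0.19 for Kif7. Kif7 was the 1 gene of the 9 whose groups did not overlap, at 19.6, 18.1 and 19.4 CPM against 17.1, 17.2 and 16.0 CPM (adjusted p = 0.316 by edgeR), where 21% of all genes had such groups. Kif7 shares 791 of its 31-base words with 9330171B17Rik on the opposite strand, and 81.9% of its words are its own, so counts can be split between both genes.

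Replicate 1 of the controls shared by Prrx1 and Snai1 stood apart for 4 members, low for 3 and high for Prkaca. Gli3 held 29.0 CPM there against 42.9 and 39.5 CPM in the other controls. Csnk1a1 held 281 CPM against 375 and 373 CPM. Gsk3b held 70.6 CPM against 96.6 and 94.3 CPM. These 3 genes were lowest in that library among the libraries of the 3 groups. Prkaca held 174 CPM there against 154 and 158 CPM, the highest of all 30 libraries, and without that library its change was -0.17 for Prrx1 (adjusted p = 0.0784 by edgeR) and -0.04 for Snai1. Without it the number of genes called rose from 393 to 2639 (19.7% of those tested) for Prrx1 and from 212 to 3062 (22.9%) for Snai1, and 4 and 2 of the 9 genes passed by edgeR. For Prrx1 these were Gli3 at -0.25 (adjusted p = 0.0370), Gsk3b at -0.20 (adjusted p = 0.0169), Csnk1a1 at -0.13 (adjusted p = 0.0305) and Spop at 0.21 (adjusted p = 0.00401). For Snai1 they were Csnk1a1 at -0.15 (adjusted p = 0.0137) and Gsk3b at -0.20 (adjusted p = 0.0143). Mitochondrially encoded protein genes made up 2.48% of that library and 2.05% and 2.09% of the other controls. They made up 1.088 to 1.501% of the Prrx1 libraries and 1.072 to 1.364% of the Snai1 libraries, below every control. The part of this share in these changes was not tested, nor was which of these fits is nearer to the cells.

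**Figure D4:**
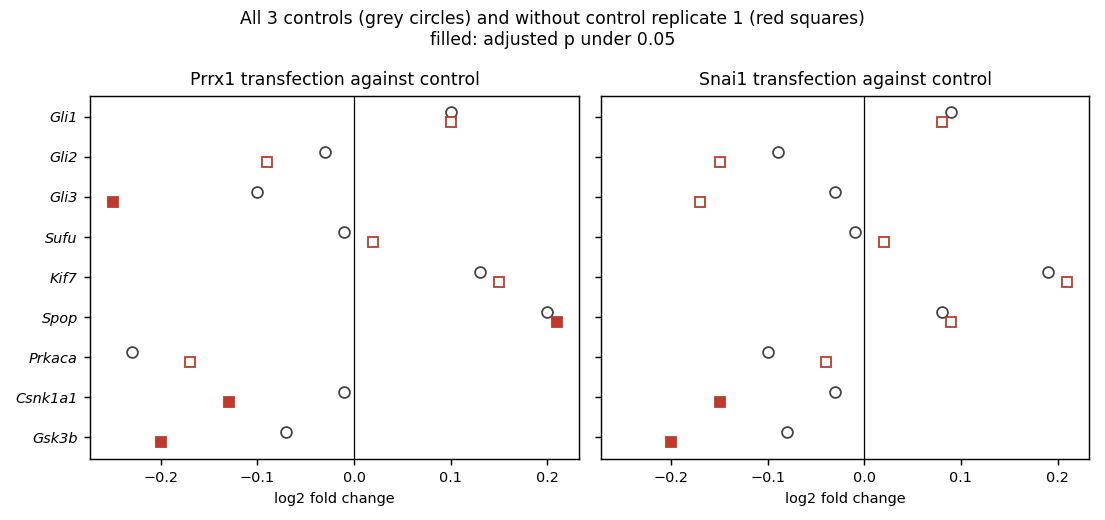
Log2 fold change of the 9 genes after Prrx1 (left) and Snai1 (right) transfection with all 3 controls, grey circles, and without control replicate 1, red squares; filled symbols have an adjusted p under 0.05. Without that library Gsk3b reads -0.20 in both panels and Csnk1a1 -0.13 and -0.15, all filled, and none is filled with all 3 controls.

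Egr1 and Jun transfection shared their controls too. For Egr1, edgeR called 0 of the 9 genes, where 0.323% of 14539 genes passed (0.206% higher and 0.117% lower), DESeq2 called 0, and 0 had an unadjusted p under 0.05. The log2 fold changes were between -0.02 and 0.15. Kif7 was again the 1 gene whose groups did not overlap, at 21.4, 21.8 and 21 CPM against 20.2, 20.1 and 18.6 CPM (adjusted p = 0.628 by edgeR), where 16.3% of all genes had such groups.

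For Jun, edgeR called 0 of the 9 genes, where 0.956% of 14539 genes passed (0.454% higher and 0.502% lower), DESeq2 called 0, and 2 had an unadjusted p under 0.05, Gli2 and Gli3. Gli2 held 16.9, 14.7 and 15.9 CPM against 14.4, 10.5 and 14.3 CPM, a log2 fold change of 0.30 ± 0.114 (SE; adjusted p = 0.234). Gli3 held 35.7, 35.7 and 39.3 CPM against 35.3, 27.8 and 33.7 CPM, a log2 fold change of 0.22 ± 0.0862 (SE; adjusted p = 0.258). The Jun libraries were above the controls for both genes, by little apart from control replicate 2, and 23.4% of all genes had groups that did not overlap. Control replicate 2 had the lowest Gli2 and Gli3 of all 30 libraries and was also the library with the highest neural markers, of which 2 of 6 were above 1 CPM in every library and 1 was under 1 CPM in every library. Its summed immune markers were the highest too, at 18.45 CPM. Without control replicate 2 the Jun changes were 0.16 for Gli2 and 0.11 for Gli3, and the Egr1 changes were 0.01 and 0.05.

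With Srebf2 transfection none of the 9 genes passed the test. edgeR called 0 of the 9 genes, where 17.3% of 12730 genes passed (8.63% higher and 8.68% lower), DESeq2 called 0, and 2 had an unadjusted p under 0.05, Gsk3b and Csnk1a1. Gsk3b held 105, 104 and 110 CPM against 94.05, 97.8 and 98.6 CPM. The Srebf2 libraries were all above the controls, and Gsk3b came close to the threshold with a log2 fold change of 0.15 ± 0.0528 (SE; adjusted p = 0.0526 by edgeR and 0.0657 by DESeq2). Csnk1a1 held 381, 385 and 393 CPM against 365, 359 and 365 CPM, also apart, with a log2 fold change of 0.11 ± 0.0457 (SE; adjusted p = 0.102). Groups did not overlap for 2 of the 9 genes, against 35.3% of all genes tested. The intervals of the fold changes held between 0.788 and 1.20 for 8 of the 9 genes and reached 1.49 for Gli1.

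Levels were also compared between the transduction and transfection experiments. Gli3 held 69.7 to 83.3 CPM in the 6 transduction libraries, with and without doxycycline, and 27.8 to 48.2 CPM in the 24 transfection libraries. Gsk3b held 156 to 194 CPM against 70.6 to 111 CPM. Both were apart, with ratios of medians of 2.01 and 1.76, while the other 7 genes overlapped between the 2 sets of libraries. This is a count of 2 of 9, against 49.2% of the 12433 genes with a mean of at least 1 CPM, and for 23.8% the transduction libraries were the higher ones, as for both genes here. Transduction and experiment cannot be told apart, and endothelial markers summed to 18.7 to 27.5 CPM in the transduction libraries and to 3.01 to 6.58 CPM in the transfection libraries, where 0 of 6 were above 1 CPM in every library and 2 were under 1 CPM in every library. Their part in these levels was not tested.

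Within that order, neighbouring groups mostly overlapped. For Gli2 the doxycycline group stood above all others, and the next break came between Snai1 at 20.3 ± 1.79 CPM and Jun at 15.8 ± 1.10 CPM, so that all 3 groups of the Jun and Egr1 experiment were lowest. Gli1 was highest in the 3 groups of the Prrx1 and Snai1 experiment, at 6.14 to 6.61 CPM, and the control among them did not overlap the next group, Srebf2 at 4.21 ± 1.12 CPM, while Snai1 did. Sufu had means of 55.8 to 59.2 CPM in the Prrx1, Snai1 and Srebf2 experiments and 43.5 to 44.7 CPM in the Jun and Egr1 experiment. Prkaca split the same experiments, with 137.8 to 162.2 CPM against 112.8 to 115.7 CPM. By CPM Spop and Csnk1a1 were the most even, with ratios of highest to lowest group mean of 1.15 and 1.16. By TPM Spop was not even, with group means between 95.6 and 243.6. Over the 10 group means, which share their experiments, Pearson's r was 0.90 for Gli3 with Gsk3b, 0.87 for Sufu with Prkaca and 0.85 for Gli1 with Sufu, as a description of these groups.

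The transcripts to which the counts were assigned also differed between the experiments. Prkaca-202, which starts downstream of Prkaca-201, took 43.3 to 58.7% of Prkaca's TPM in the 6 transduction libraries and 0 to 7.02% in the 24 transfection libraries. The shares were 50.8 ± 7.10% with doxycycline and 53.7 ± 6.09% without it (SD, n = 3 each), so they overlapped between those groups. Of the 31-base words of Prkaca-202, 211 or 15.4% are not in Prkaca-201, and the rest of the split between both is an estimate. With doxycycline Prkaca-201 held 61.4 ± 3.71 CPM against 74.8 ± 2.34 CPM without it, apart, and Prkaca-202 held 37.3 ± 8.16 CPM against 51.8 ± 12.4 CPM, overlapping. The start regions of both transcripts are shown because the estimate assigned counts to both (GRCm38.p6, plus strand, RefSeq, 5′ to 3′, CpG pairs in capitals). Whether the second start was in use was not tested, and the read layout of the libraries is not given.
Prkaca promoter at chr8:83972728-83972977, before Prkaca-201: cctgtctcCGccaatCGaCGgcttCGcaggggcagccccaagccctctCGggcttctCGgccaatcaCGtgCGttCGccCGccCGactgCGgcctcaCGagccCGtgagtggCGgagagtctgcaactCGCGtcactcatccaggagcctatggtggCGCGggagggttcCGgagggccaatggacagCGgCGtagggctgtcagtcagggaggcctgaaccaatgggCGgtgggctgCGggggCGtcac
Prkaca promoter at chr8:83976633-83976882, before Prkaca-202: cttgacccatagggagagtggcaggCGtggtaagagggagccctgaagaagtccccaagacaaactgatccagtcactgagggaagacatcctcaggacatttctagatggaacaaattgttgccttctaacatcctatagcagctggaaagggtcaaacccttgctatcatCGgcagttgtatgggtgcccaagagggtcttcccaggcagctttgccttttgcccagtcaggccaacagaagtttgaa
The window before Prkaca-201 held 25 CpG pairs and that before Prkaca-202 held 2, with 68.8% and 50.8% G and C. Gli2 and Prkaca lie on chromosomes 1 and 8, and neither of the Prkaca windows had a match to TAATTA.

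A short transcript of Spop was split between the experiments in the same way. Spop-204 took 15.3 to 51.0% of Spop's TPM in the transduction libraries and 1.74 to 12.4% in the transfection libraries, which did not overlap. Spop in TPM was 243.6 and 213.0 in the transduction groups and 95.6 to 116.8 in the others, while Spop in CPM overlapped. Gli3-202 took 14.5 to 41.7% of Gli3's TPM against 4.14 to 26.3%, which overlapped. Few of the words of these transcripts are their own, 5.91% for Spop-204 and 2.33% for Gli3-202, so these shares rest largely on the estimate.

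**Figure D5:**
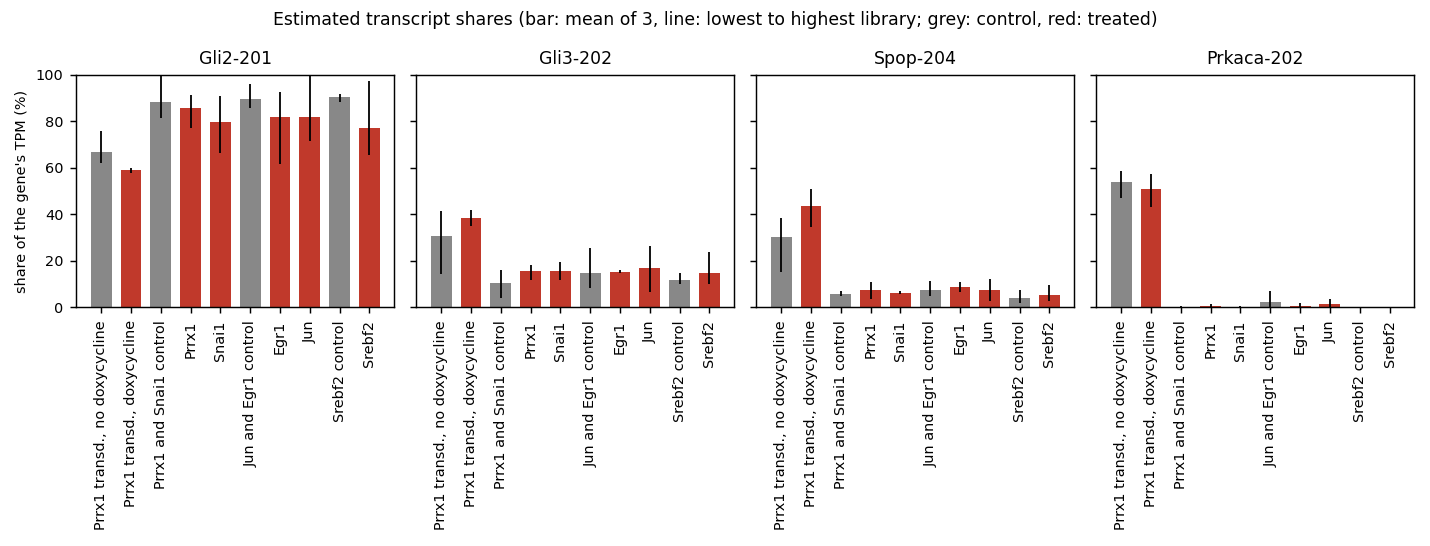
Share of its gene's TPM (percent) given to Gli2-201, Gli3-202, Spop-204 and Prkaca-202 in the 10 groups, with bars for the mean of 3 libraries and lines from the lowest to the highest library. Prkaca-202 is at 50.8 and 53.7% in the transduction groups and at most 2.34% on average in the others.

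Promoter windows of 7 of the 9 genes were found in the RefSeq table, with 8 windows because Prkaca has a pair, and none was found for Gli1 or Csnk1a1. They were searched on both strands for TAATTA (Prrx1), CAGGTG (an E-box that Snai1 binds), GCGTGGGCG (Egr1), TGACTCA (the AP-1 site of Jun), TCACNCCAC (a sterol regulatory element) and GACCACCCA (the Gli site). None of the 8 windows had a match to any of the 6. Over all 32851 windows, the shares with a match were 4.84%, 17.2%, 0.536%, 4.46%, 1.05% and 0.225% in that order.

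The other genes around the Gli proteins were taken from 6 lists of 104 genes beside the 9. With doxycycline 4 of the 80 tested were higher and 2 were lower, 7.5% of them, where 6.19% of all genes passed. In the kinase list Pkig, an inhibitor of protein kinase A, rose from 10.9 ± 0.944 to 22.1 ± 2.64 CPM (1.99-fold; adjusted p = 0.00278), while Prkaca fell. Of the Hedgehog ligands, receptors and coreceptors, Gas1, a coreceptor for Hedgehog ligands, rose 1.85-fold (adjusted p = 0.0232) and Mosmo, which lowers Smoothened at the cilium, rose 1.32-fold (adjusted p = 0.0421 by edgeR and 0.0531 by DESeq2), and the other 8 of 10 tested did not pass. Of the reported Gli target genes, 1 of 16 rose, Ccnd1, which encodes cyclin D1, from 116.8 ± 7.02 to 295.2 ± 18.8 CPM (2.49-fold; adjusted p = 7.20e-06). Ccne1, which encodes cyclin E1, fell by 0.47 on the log2 scale (adjusted p = 0.0399), and the other 14, with Gli1 among them, did not pass. The target genes' median log2 fold change was -0.22. Of the 31-base words of Ccnd1 and Gas1, 77.7% and 81.8% are found in no other gene, so their counts can be split with other genes. Glis2, a zinc finger relative of the Gli factors, fell by 0.47 on the log2 scale too (adjusted p = 0.0254). These p-values are from edgeR, and the list of 30 other regulators and the list of ubiquitin route genes had 0 called of 29 and 12 tested, with unadjusted p under 0.05 for 4 and 1 of them, while DESeq2 called 0 and 0.

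The doxycycline effect differed from the Prrx1 transfection effect for 4 of these genes by edgeR. The differences on the log2 scale were 1.30 ± 0.122 for Ccnd1 (adjusted p = 1.05e-05), 0.97 ± 0.181 for Pkig (adjusted p = 0.00558), 0.97 ± 0.213 for Gas1 (adjusted p = 0.01765) and -0.57 ± 0.139 for Ccne1 (adjusted p = 0.0299; SE throughout). With Prrx1 transfection itself edgeR called 0 of 80, with unadjusted p under 0.05 for 13, while DESeq2 called 3. Of all genes, 3% passed by edgeR and 2.86% of 22723 by DESeq2. With Egr1 edgeR called 0 of 86, with unadjusted p under 0.05 for 6, while DESeq2 called 2. Of all genes, 0.323% passed by edgeR and 1.71% of 24594 by DESeq2. With Snai1 edgeR called 1 of 80, or 1.25%, where 1.62% of all genes passed. That gene was the transfected Snai1 itself, a listed Gli target, so its call follows from the transfection and says nothing about Gli targets. Unadjusted p was under 0.05 for 17 of the 80, and DESeq2 called 1, where it called 2.35% of 22723 genes. With Jun the 1 gene called by edgeR was Ski, a corepressor that binds Gli3 repressor, which rose 1.17-fold (adjusted p = 0.0203). This was 1 of 86, or 1.16%, where 0.956% of all genes passed. DESeq2 called 6 of the 86 with Jun, where it called 3.48% of 24594 genes, and 14 had an unadjusted p under 0.05. DESeq2 was given all genes, without the filter on low counts, so its shares are over more genes than those of edgeR.

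Srebf2 moved more of the listed genes, 10 higher and 5 lower of 79, or 19.0%, close to the 17.3% of all genes. In the ubiquitin list 4 of 12 rose, namely Kat2b (1.26-fold; adjusted p = 0.00102), Itch (1.18-fold; adjusted p = 0.00564), Skp1a (1.16-fold; adjusted p = 0.0157) and Cul1 (1.13-fold; adjusted p = 0.0233). Skp1a and Cul1 are subunits of the ligase that marks phosphorylated Gli3 for partial digestion, and Itch is a ligase that acts on Gli1. Of the other regulators 5 of 29 rose, led by Sap18, a partner of Sufu in repression, which went from 13.2 ± 0.201 to 24.5 ± 2.96 CPM (1.89-fold; adjusted p = 2.45e-05), followed by Xpo1, Tulp3, Sin3a and Dyrk1a at 1.13-fold to 1.18-fold. In the kinase list Axin1 and Gsk3a fell, by 0.24 and 0.19 on the log2 scale (adjusted p = 0.00606 and 0.0330). Of the 31-base words of Gsk3a, Sap18 and Kat2b, 69.7%, 82.2% and 85.4% are found in no other gene, so their counts can be split with other genes. Of the reported targets Igfbp6 and Foxc2 fell, both by 0.37 on the log2 scale, and Foxm1 rose 1.14-fold with overlapping groups (adjusted p = 0.000439, 0.00784 and 0.0254). All of these p-values are from edgeR.

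Genes whose level followed each Gli factor most closely over the 10 group means, by Pearson's r on log2(CPM + 1), were named as a description. For Gli2, among 10030 coding genes, they were Trim7 (r = 0.984), Olfml3 (r = 0.975), Igfbp4 (r = 0.967), Rflnb (r = 0.964) and Cdh11 (r = 0.957). For Gli3 they were Setd5 (r = 0.997), Gatad2b (r = 0.996), Ms4a4d, Uvssa and Slc25a40 (r = 0.995 each). For Gli1 they were Uck2 (r = 0.974), Plau (r = 0.971), Tinf2 (r = 0.968), Epha2 and Pdia6 (r = 0.966 each). The groups share experiments, and by Spearman's rho over the 30 libraries 1 of the 5 genes for Gli2, 1 for Gli3 and 0 for Gli1 were again among the closest 5.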

How the data were processed

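Bulk RNA-seq of 30 libraries was used. The authors deposited, per the file headers, estimated counts and TPM for 118491 sequences in each library, made with kallisto 0.43.0 and the mm10 build, as listed per the submitters' processing notes. Which annotation, strand and read layout were used is not given in the sources used here. Of these sequences, 116816 matched GENCODE M21 transcripts by versioned identifier, 1673 did not (0.605 to 0.694% of counts) and 2 were reporters. Estimated counts were summed over the transcripts of each gene and rounded, and TPM were summed likewise. CPM were computed on the total over mouse genes, since reporters took 0.00620 to 3.94% of counts and, in the Jun and Egr1 controls, 9.20 to 12.0% of TPM, which lowers TPM of all other genes there.

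Each treated group was tested against its own controls with edgeR 4.0.16 in R 4.3.3 (TMM, robust quasi-likelihood F test, two-sided, minimum count 10 and total 15, reporters included), with Benjamini-Hochberg adjustment over all genes tested and a threshold of 0.05. Groups that share controls were fitted together, and the difference between both Prrx1 experiments was fitted on their 12 libraries. SE is the log2 fold change divided by the root of F. The 95% intervals are the log2 fold change ± 1.96 SE, a normal quantile, so they are narrower than the F test allows. Kif7 with Snai1, for example, had an interval of 1.01 to 1.29 with an unadjusted p of 0.0535 by edgeR. The fits were tested on simulated data. Alternatives were RLE scaling, DESeq2 1.42.0, other filters (none, or 5 CPM in 3 libraries), limma 3.58.1 on log2(TPM + 1) with a mean TPM of at least 1, all 30 libraries, a replicate block, coding transcripts alone, the 6 libraries of a comparison alone, and each replicate left out. No 2 replicates of a group had identical counts, over 30 pairs. A count of 3 corresponds to 0.0817 to 0.378 CPM.

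The members and lists were chosen with earlier results of these data known. Named beside the 9 genes are, per list and comparison, at most 5 called genes with the largest change, and the 5 genes most like each Gli factor. 1 called gene of the lists is not reported here. Replicate numbers were not taken as pairs, since same-numbered libraries did not deviate together in every pair.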

Additional observations from a re-analysis of the deposited data

Results flagged for a closer look

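Gli2 differed between both ways of adding Prrx1. The doxycycline effect minus the transfection effect was 1.51 on the log2 scale (SE 0.172; adjusted p = 6.48e-05 by edgeR), with 3 of 3 doxycycline libraries above all of their controls and the 3 transfected libraries within the range of theirs. The 2 experiments also differ in how Prrx1 was delivered, in doxycycline, in depth and in the level of Prrx1. Mean Prrx1 was 3932 CPM with doxycycline and 15970 CPM with transfection, against 1008 and 579.5 CPM in their controls. Further differences lie in the transcripts given the counts and in endothelial and immune markers. The mitochondrial share was below every control with Prrx1 transfection but overlapped with doxycycline. The parts of these differences in the Gli2 result cannot be told apart here.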

How the results depend on the processing

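Over 63 pairs of gene and comparison, 948 of 968 alternatives stayed on the same side of the threshold, 47 of them with a changed sign of a value uncalled in both, 5 lost a call (Prkaca with doxycycline), 15 gained one and 0 reversed a call. Counts of all genes called moved more. With doxycycline 844 genes became 1326 with no filter, 162 by limma, 2728 in the fit on all 30 libraries and 335 to 1250 without 1 replicate. For Prrx1 transfection 393 became 651 by DESeq2, 597 with no filter, 141 with the 6 libraries alone and 106 to 2639 without 1 replicate. For Snai1 212 became 534, 440, 64 and 46 to 3062 in that order, and 367 by limma. For Egr1 47 became 420 by DESeq2, 1172 by limma, 94 with all 30 libraries and 10 to 102 without 1 replicate. For Jun 139 became 856, 2203, 60 and 29 to 94 in that order, 252 with a stricter filter and 311 with 6 libraries alone. For Srebf2 2204 became 1019 by limma, 568 with all 30 libraries and 996 to 2329 without 1 replicate. For the difference between both Prrx1 experiments 612 became 952 by DESeq2, 245 by limma, 1853 with all 30 libraries and 299 to 1118 without 1 replicate. Apart from the tests, 53 of 90 group levels of the members moved when TPM was used in place of CPM. The levels given thus depend on the unit.

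The share of calls that were higher moved with doxycycline from 55.8% to 70.4% by limma and 34.8% with all 30 libraries. With all 30 libraries it moved from 64.6% to 50.15% for Prrx1, from 70.3% to 59.9% for Snai1 and from 47.5% to 31.7% for Jun. Limma moved Srebf2 from 49.9% to 66.5%, Egr1 from 63.8% to 98.4% and Jun from 47.5% to 97.8%. By limma on TPM the median of all genes was 0.148 for Egr1 and 0.145 for Jun on the log2 scale, and there Csnk1a1 passed for Egr1, and Gli3, Sufu, Spop, Prkaca and Csnk1a1 for Jun, at 0.19 to 0.37, where 9.44% and 17.7% of all genes passed. Relative to that median these changes were smaller.

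With a replicate block Egr1 had 23 calls and Jun 71, and the block changed no call of the 9 genes. Gli2 with doxycycline was 1.49 (adjusted p = 5.30e-05), while Mosmo (adjusted p = 0.0695) and Ccne1 (adjusted p = 0.0504) lost the call. Same-numbered libraries correlated at 0.08 to 0.20 with doxycycline, 3 of 3 best with their own number, and at -0.19 to 0.17 elsewhere. Depth limits Gli1 most, at 9 to 160 counts per library. Without Srebf2 replicate 1, Gsk3b passed (0.17; adjusted p = 0.0482).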
